A study of Homo sapiens with 4 samples.

Results

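CHRNA7, CHRFAM7A, ARHGAP11A and ARHGAP11B are 2 pairs of genes on the long arm of human chromosome 15, in band 15q13. Each pair consists of a parent gene and a partial duplicate, which are near-identical only in the exons they share. They were found by their symbols and are 4 of the 23444 rows of the deposited tables. They were picked with their values in knockdown against control cells already known, so these values are given as a description, and whether they pass a test supports nothing. The RNA came from U87-MG, a long-established line of human glioblastoma cells, and 4 libraries were made. The 2 libraries called shMAGED2 here are from cells given a hairpin RNA against MAGED2, and the other 2, called shCON, are from cells given a negative control hairpin; neither clone nor passage is used here. According to the series design the knockdown of MAGED2 was stable, while the treatment protocol in the labels describes transient transfection of hairpins against ZDHHC15 and harvest after 36 h, and which of these applies was not resolved.

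CHRNA7 encodes the alpha7 subunit of the nicotinic acetylcholine receptor, which assembles into a calcium-permeable channel of identical subunits in neurons, immune cells and other cell types. CHRFAM7A is a human-specific fusion in which a partial copy of CHRNA7 follows exons derived from the kinase gene ULK4. Its product lacks part of the ligand-binding region and is known to reduce the activity of alpha7 receptors. ARHGAP11A encodes a GTPase-activating protein that switches off the small GTPase RHOA, and its transcript is known to rise as cells pass through the cell cycle. ARHGAP11B is a human-specific partial copy of ARHGAP11A whose truncated protein is known for amplifying neural progenitors in the developing neocortex.

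The order of the genes along the chromosome, in GENCODE 29 coordinates on hg38, puts both duplicates before both parents. CHRFAM7A (ENSG00000166664) lies on the minus strand at chr15:30357766-30393849 and ARHGAP11B (ENSG00000285077) on the plus strand at chr15:30624494-30638805. CHRNA7 (ENSG00000175344) follows on the plus strand at chr15:31923438-32173018, and ARHGAP11A (ENSG00000198826) on the plus strand at chr15:32615144-32639949. All 4 are annotated as protein-coding. ARHGAP11B overlaps a further protein-coding gene of the same strand, AC091057.6 (ENSG00000284906), at chr15:30624548-30685606, which was brought in after its values were seen.

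CHRNA7 and CHRFAM7A share their exons 5 to 10. The following 60 bases span the joint between exons 4 and 5 in each transcript (CHRNA7-201 and CHRFAM7A-201 of GENCODE 29) and show where the shared part starts. Lower case marks the last 30 bases of exon 4 and capitals mark the first 30 bases of exon 5.
CHRNA7: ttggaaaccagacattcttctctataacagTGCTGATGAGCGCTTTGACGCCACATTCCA
CHRFAM7A: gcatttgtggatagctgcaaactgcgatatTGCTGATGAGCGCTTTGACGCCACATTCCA
From the first base of exon 5 all 30 bases were identical, whereas before it 5 of 30 were. Exon 4 lies at chr15:32111790-32111899 in CHRNA7 and at chr15:30380353-30380399 in CHRFAM7A, and exon 5 at chr15:32153907-32153986 and chr15:30377030-30377109. Over exons 5 to 10, 5675 of 5684 aligned bases were identical (99.8%), with 9 differences, gaps left out. Exons 5, 6 and 8 held 0 differences. Of all 100-base windows of CHRNA7-201 (6181 bases), 78.0% also occurred letter for letter in a CHRFAM7A transcript. Of those of CHRFAM7A-201 (6220 bases), 77.5% occurred in a CHRNA7 transcript and 84.6% in a transcript of any other gene, among them the ULK4 pseudogenes ULK4P1 (7.11%), ULK4P2 (5.07%) and ULK4P3 (2.53%). The sources used here do not give the read length, so the window of 100 bases is a yardstick only.

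ARHGAP11B matches the first 7 exons of ARHGAP11A, and its annotated transcript ends there. Of 1012 aligned bases 1004 were identical (99.2%), with 8 differences. Exon 5 is shorter in the ARHGAP11B transcript and is shown whole for both genes. The exons after it still matched, with 145 of 147 aligned bases identical in exon 6 and 60 of 60 in exon 7. Capitals mark the bases of ARHGAP11A exon 5 (chr15:32625080-32625243, 164 bases) that are missing from ARHGAP11B exon 5 (chr15:30635080-30635188, 109 bases).
ARHGAP11A: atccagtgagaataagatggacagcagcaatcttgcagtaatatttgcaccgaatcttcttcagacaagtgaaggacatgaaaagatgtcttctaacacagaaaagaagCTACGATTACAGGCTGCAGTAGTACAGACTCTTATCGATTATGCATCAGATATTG
ARHGAP11B: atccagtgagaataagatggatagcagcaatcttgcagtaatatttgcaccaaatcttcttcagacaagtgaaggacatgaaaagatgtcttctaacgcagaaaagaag
The stretch absent from the ARHGAP11B exon has 55 bases, which is not a multiple of 3. Only transcripts were compared, so whether the ARHGAP11B gene itself holds these bases was not tested. The coding sequence of ARHGAP11B-202 has 801 bases against 3069 in ARHGAP11A-201. Within the 109 bases that both hold, 106 were identical. The differences were C22T, G52A and A98G, counted from 1 at the 5′ end of the exon with the base of ARHGAP11A first. ARHGAP11A-201 is the longer transcript (5898 bases), and 9.14% of its 100-base windows occurred in another gene. For ARHGAP11B-202 this was 100%, because all 913 of its windows occur in a transcript of AC091057.6. The AC091057.6 transcript compared here, AC091057.6-203, has 2042 bases. Of the windows of ARHGAP11B-202, 33.2% also occurred in ARHGAP11A.

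**Figure D1:**
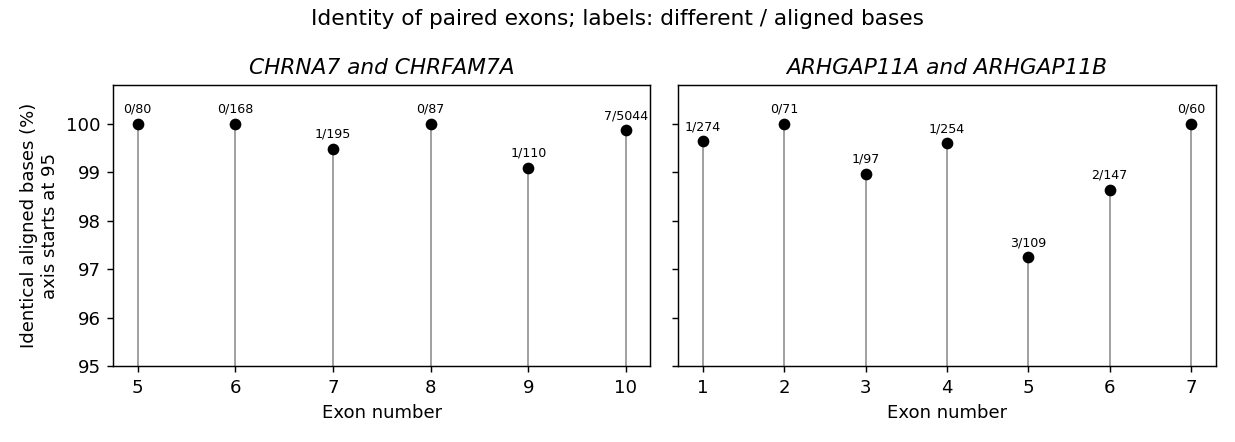
Percentage of identical aligned bases (vertical axis, starting at 95%) for each pair of corresponding exons (horizontal axis, exon number), with the number of different over aligned bases above each point. Every exon of CHRNA7 and CHRFAM7A from 5 to 10 lies above 99%, and the lowest point is exon 5 of the ARHGAP11 pair at 97.2%.

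The stretches around the starts of the 4 genes reach from 250 bases before to 50 bases after the annotated start (RefSeq, GRCh38.p14; all 4 genes matched) and are shown because all 4 genes were higher in shMAGED2. Each window stands for a single annotated start of its gene. The windows of CHRNA7, CHRFAM7A and ARHGAP11B lie wholly inside the GENCODE gene spans given above, downstream of the outermost start. Capitals mark matches, on either strand, to any of 7 motifs. The E2F motifs were TTTGGCGC and TTTCGCGC. The cell cycle homology motifs were TTTGAA and TTCGAA. The others were CCAAT, the GC box GGGCGG, and TATAAA, the TATA box.
CHRNA7 (chr15:32030233-32030532, plus strand): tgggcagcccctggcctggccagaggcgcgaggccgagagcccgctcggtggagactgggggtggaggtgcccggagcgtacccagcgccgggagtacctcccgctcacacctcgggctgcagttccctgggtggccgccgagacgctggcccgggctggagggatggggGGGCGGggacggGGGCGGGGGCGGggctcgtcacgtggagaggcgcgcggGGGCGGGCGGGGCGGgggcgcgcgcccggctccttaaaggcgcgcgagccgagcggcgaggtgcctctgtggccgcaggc
CHRFAM7A (chr15:30393491-30393790, minus strand): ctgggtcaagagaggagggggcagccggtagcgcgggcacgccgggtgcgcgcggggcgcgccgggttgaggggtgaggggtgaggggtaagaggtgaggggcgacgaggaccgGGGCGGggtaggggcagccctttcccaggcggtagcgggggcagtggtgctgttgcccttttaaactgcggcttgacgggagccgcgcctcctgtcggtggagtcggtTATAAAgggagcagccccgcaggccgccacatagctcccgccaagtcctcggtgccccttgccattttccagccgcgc
ARHGAP11A (chr15:32614894-32615193, plus strand): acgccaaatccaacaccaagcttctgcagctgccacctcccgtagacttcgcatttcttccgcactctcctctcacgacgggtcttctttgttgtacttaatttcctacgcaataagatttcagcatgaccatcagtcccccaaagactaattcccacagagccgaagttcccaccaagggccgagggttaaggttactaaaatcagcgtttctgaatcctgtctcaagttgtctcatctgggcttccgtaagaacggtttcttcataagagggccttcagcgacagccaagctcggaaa
ARHGAP11B (chr15:30625878-30626177, plus strand): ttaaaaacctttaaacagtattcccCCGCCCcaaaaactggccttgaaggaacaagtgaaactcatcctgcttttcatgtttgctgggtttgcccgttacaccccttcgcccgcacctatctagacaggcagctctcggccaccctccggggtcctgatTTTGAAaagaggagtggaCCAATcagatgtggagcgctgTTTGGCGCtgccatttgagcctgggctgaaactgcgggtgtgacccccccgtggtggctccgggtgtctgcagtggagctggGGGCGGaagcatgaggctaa
The longest run common to the CHRNA7 and CHRFAM7A windows had 10 bases. The CHRNA7 window held 6 GC boxes, some of which overlap each other, and the CHRFAM7A window held 1 GC box and 1 TATA box. Among 35116 human windows of this length, 45.0% held a GC box and 11.5% a TATA box. The ARHGAP11B window held TTTGGCGC (0.652% of all windows), TTTGAA (15.2%), CCAAT (34.6%) and 2 GC boxes. TTTCGCGC and TTCGAA, found in 0.515% and 1.45% of all windows, were in none of the 4. The ARHGAP11A window held none of the 7 motifs, and its longest run in common with that of ARHGAP11B had 7 bases. These 2 windows do not correspond to each other. The RefSeq start of ARHGAP11A lies 346 bases upstream of the start of ARHGAP11A-201, whose exon 1 has 851 bases. That of ARHGAP11B lies 548 bases upstream of the start of ARHGAP11B-202, whose exon 1 has 274 bases. Motifs held by only one of these windows are therefore no difference between corresponding stretches of the copies. A match describes the letters only.

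The total count per library was between 28673774 and 36234336, and 17001 to 17312 genes had at least 1 count. MAGED2, the targeted gene, had 6090 and 5225 counts in the shCON libraries and 526 and 795 in the shMAGED2 libraries, and ZDHHC15 had 0 in all 4. Libraries of a group were not repeats of each other, with a chi-square per degree of freedom of 7.00 for shCON and 79.6 for shMAGED2, against 122 to 198 across groups. Nothing in the labels says that replicates were separate cultures, so the spread may be technical. Markers fitted the labelled line in part: VIM (3790 to 4206 FPKM), CD44 (204 to 294) and EGFR (21.7 to 23.3) were high, whereas SOX2 was at 0.0424 FPKM or less and AQP4 and ALDH1L1 were at 0. GFAP was at 0.212 to 0.858 FPKM. Of the 11 markers of astroglia and glioma 7 were tested: NES rose from 0.835 and 0.996 FPKM to 3.17 and 3.29 (log2 change of counts 1.88, SE 0.18; edgeR, adjusted p = 0.002) and OLIG2 fell from 1.94 and 2.17 to 0.596 and 0.794 (−1.45, SE 0.27; adjusted p = 0.0158). OLIG2 had an adjusted p of 0.0674 and 0.0936 without shCON replicate 1 and 2. The part of these shifts in the results was not tested. Of 10 macrophage and lymphocyte markers only CD68 was abundant (199 to 296 FPKM), and AIF1 was at 0. In such bulk samples, fewer cells that express a gene and less RNA per cell cannot be told apart.

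The 4 genes were all higher in both shMAGED2 libraries than in both shCON libraries. Levels are in CPM (each count over the TMM-scaled library total) and changes as log2 differences, shMAGED2 minus shCON, from edgeR's fit to 15293 genes. All 4 genes had enough counts to be tested and passed an adjusted p of 0.05, as did 23.9% of the genes tested (12.3% as higher). For 33.0% of the genes tested both shMAGED2 libraries lay above both shCON libraries. Since the genes were chosen on this contrast, nothing is read from either count.

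CHRNA7, the alpha7 receptor subunit, had 57 and 33 counts in shCON replicates 1 and 2 and 312 and 527 in shMAGED2 replicates 1 and 2. This was 1.63 and 1.12 CPM against 10.6 and 14.4 CPM, or 1.38 ± 0.36 against 12.5 ± 2.66 (SD, n = 2). The groups did not overlap; shMAGED2 replicate 2 was the highest library and shCON replicate 2 the lowest. The log2 change was 3.17 (SE 0.30), a ratio of mean CPM of 9.04.

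CHRFAM7A, the fusion copy, had 53 counts in each shCON library and 330 and 395 in the shMAGED2 libraries. Its levels were 1.52 and 1.81 CPM against 11.2 and 10.8 CPM, or 1.66 ± 0.20 against 11.0 ± 0.32 (SD, n = 2). Here too the groups did not overlap, and replicate 1 was the higher of the shMAGED2 libraries, in contrast to CHRNA7. The log2 change was 2.72 (SE 0.23), 0.44 less than that of CHRNA7.

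ARHGAP11A, the RHOA regulator, was the most abundant of the 4 in counts, with 2366 and 1913 in the shCON libraries and 5226 and 6952 in those of shMAGED2. As levels these were 67.8 and 65.2 CPM against 177 and 189 CPM, or 66.5 ± 1.83 against 183 ± 8.40 (SD, n = 2). The gap between the groups was far wider than the spread within either. The log2 change was 1.46 (SE 0.10), a ratio of mean CPM of 2.76.

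ARHGAP11B, the short copy, had 0 counts in both shCON libraries and 126 and 49 in the shMAGED2 libraries. With 0 counts, a level of up to 0.0860 CPM is possible in shCON replicate 1 and of up to 0.102 CPM in replicate 2 (3 counts, counting error only), while the shMAGED2 levels were 4.28 and 1.33 CPM. Taken over both libraries of a group, the level was at least 56.6-fold higher in shMAGED2 than the limit of 3 counts over the group in shCON. This bound was 28.6-fold without shMAGED2 replicate 1 and 91.6-fold without replicate 2, and it was 25.9-fold and 30.8-fold without shCON replicate 1 and 2. Replicate 2 stood at 0.312 times the level of replicate 1, the widest gap between shMAGED2 libraries among the 4 genes. ARHGAP11B passed the filter on low counts through the shMAGED2 libraries alone. The limits and the bound describe only the counts assigned to this row. They do not cover ARHGAP11B reads that may have been given to AC091057.6, so they are no bound on ARHGAP11B RNA.

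**Figure D2:**
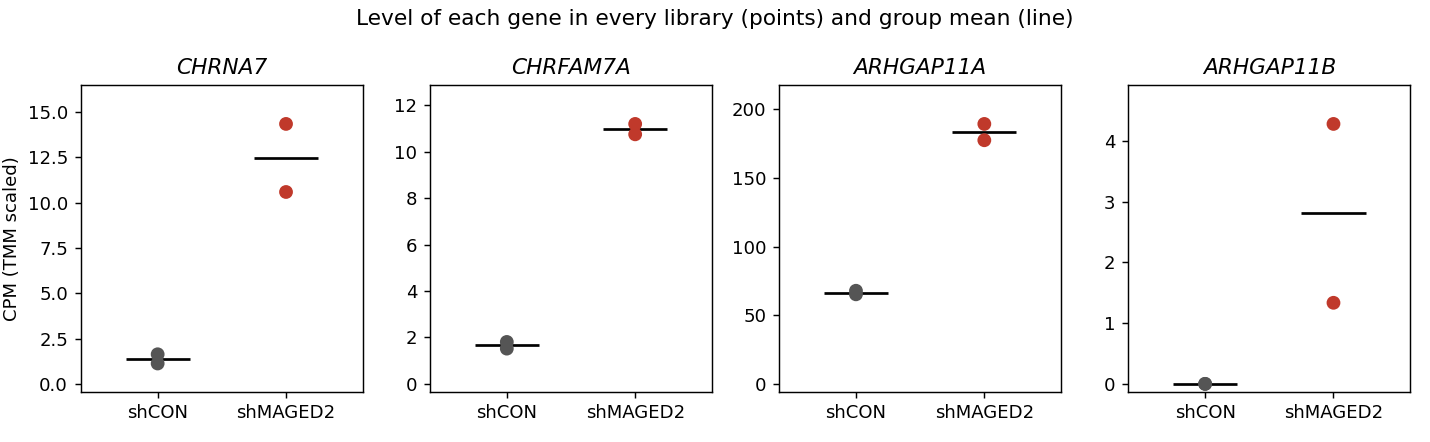
TMM-scaled CPM (vertical axes, linear, a scale of their own per gene) of CHRNA7, CHRFAM7A, ARHGAP11A and ARHGAP11B in the shCON and shMAGED2 libraries, with points for the 2 libraries of a group and a line for their mean. For each gene both shMAGED2 points lie above both shCON points, from 1.38 to 12.5 CPM on average for CHRNA7 and from 66.5 to 183 CPM for ARHGAP11A.

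Neither of the 2 alpha7 rows took more than 61.6% of their joint counts in any library. CHRFAM7A held 48.2% of the counts of the pair in shCON replicate 1 (95% Clopper-Pearson interval 38.6 to 57.9%) and 61.6% in shCON replicate 2 (50.5 to 71.9%). In shMAGED2 replicates 1 and 2 it held 51.4% (47.5 to 55.3%) and 42.8% (39.6 to 46.1%). The groups overlapped in this share, since shMAGED2 replicate 1 lay between the shCON libraries. Intervals cover counting error only. The sources used here do not say how reads that match both copies were assigned, so the split between the rows is uncertain, while their sum does not depend on how reads were divided between them. Added together, the pair had 110 and 86 counts in shCON and 642 and 922 in shMAGED2, or 3.04 ± 0.16 against 23.5 ± 2.34 CPM (SD, n = 2). The log2 change of the sum was 2.94 (SE 0.18), between those of the separate rows.

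The ARHGAP11B row can be read only together with AC091057.6, which contains every base of its coding transcript. AC091057.6 had 203 and 177 counts in shCON and 356 and 463 in shMAGED2, or 5.93 ± 0.15 against 12.3 ± 0.37 CPM (SD, n = 2), a log2 change of 1.06 (SE 0.18). In shCON all counts of these rows were given to AC091057.6. By counting error alone, 0 counts allow the ARHGAP11B row a share of up to 1.48% in replicate 1 and 1.69% in replicate 2. In shMAGED2 replicate 1, 26.1% were given to ARHGAP11B (22.3 to 30.3%, Clopper-Pearson) and in replicate 2, 9.57% (7.16 to 12.5%), intervals that do not overlap. Together the rows had 203 and 177 counts against 482 and 512, or 5.93 ± 0.15 against 15.2 ± 1.71 CPM (SD, n = 2). The log2 change of this sum was 1.35 (SE 0.18), near that of ARHGAP11A. With ARHGAP11A the counts of ARHGAP11B came to 2366 and 1913 against 5352 and 7001 and gave a log2 change of 1.49 (SE 0.09), and with AC091057.6 added as well the change was 1.45 (SE 0.09). ARHGAP11B made up 2.35% and 0.700% of the counts of the ARHGAP11 pair in shMAGED2 replicates 1 and 2.

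**Figure D3:**
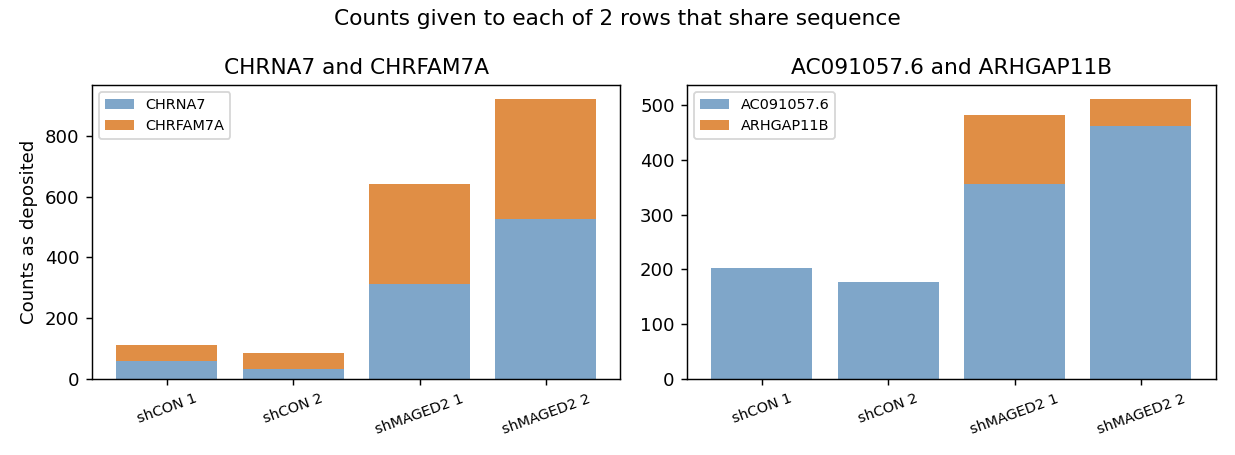
Counts as deposited (vertical axes, from 0) in each of the 4 libraries (horizontal axes), stacked for CHRNA7 and CHRFAM7A on the left and for AC091057.6 and ARHGAP11B on the right. The left pair is divided at between 42.8% and 61.6% for CHRFAM7A, whereas ARHGAP11B takes 0 counts in shCON and 126 and 49 in shMAGED2.

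Between genes, levels can be compared only per length, and for this the authors' FPKM values (fragments relative to transcript length and library total) were used. The place of CHRNA7 in this order is uncertain, since the length that its FPKM values imply ran from 1285 to 3759 bases between libraries. In shCON the order was ARHGAP11A with 12.1 and 11.4 FPKM, CHRNA7 with 0.811 and 0.306, CHRFAM7A with 0.235 and 0.283, and ARHGAP11B listed at 0. The neighbours CHRNA7 and CHRFAM7A, at 0.56 ± 0.36 and 0.26 ± 0.03 FPKM (SD, n = 2), did not differ beyond their spread. In shMAGED2, ARHGAP11A stood at 28.6 and 32.9 FPKM, CHRNA7 at 7.79 and 6.81, ARHGAP11B at 3.84 and 1.28 and CHRFAM7A at 1.64 and 1.68. ARHGAP11B and CHRFAM7A overlapped in this group. By FPKM the mean of CHRNA7 was 13.1 times that of shCON and the mean of CHRFAM7A 6.42 times. By CPM, which uses no length, these ratios were 9.04 and 6.60. In shMAGED2 the counts of CHRNA7 (312 and 527) were near those of CHRFAM7A (330 and 395), so their FPKM gap there depends on the lengths used.

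The counts and FPKM values of CHRNA7 did not keep a fixed ratio between libraries. Counts, library totals and FPKM together imply a length of 2054 and 3759 bases for CHRNA7 in shCON and of 1285 and 2134 bases in shMAGED2, a span of 2.92 times. GENCODE 29 annotates 35 transcripts of this gene. For CHRFAM7A the implied length was 6452 to 6574 bases in all 4 libraries, for ARHGAP11A 5708 to 5863, for AC091057.6 2118 to 2135, and for ARHGAP11B 1052 and 1053 where it had counts. These stayed near the 6220, 5898, 2042 and 1012 bases of the annotated transcripts compared above, while the 6181 bases of CHRNA7-201 were not reached. Of 14810 tested genes with an FPKM above 0 in each library, 40 (0.270%) had a span as wide as CHRNA7, and the median span was 1.04. Among 2564 genes with between 0.5 and 2 times its counts the share was 0.234%. Which transcripts were counted for CHRNA7 in which library was not tested.

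**Figure D4:**
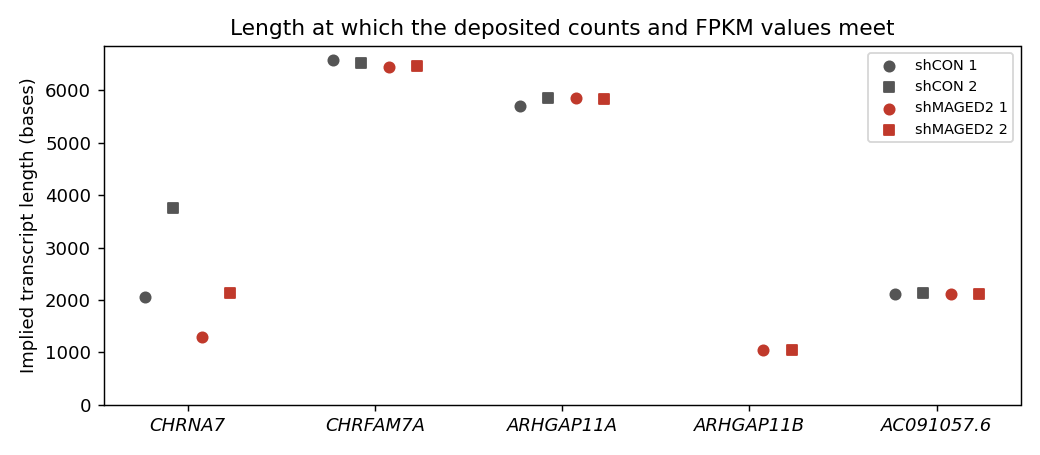
Transcript length in bases (vertical axis, from 0) implied by the deposited counts and FPKM values in each library (grey for shCON, red for shMAGED2, circles for replicate 1, squares for replicate 2). The points of CHRNA7 spread from 1285 to 3759 bases, whereas those of the other genes nearly coincide.

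Among the other subunits of the nicotinic receptor family 8 of 15 were expressed enough to test and CHRNA5 alone passed. Of the 15 other subunit genes, 5 had 0 counts in every library and 8 were tested, of which 1 rose and 0 fell, with a median log2 change of −0.18, against 12.3% higher, 11.6% lower and a median of 0.00 over all genes tested. The gene that rose was CHRNA5, an accessory subunit of ganglionic-type receptors. It had 205 and 262 counts in shCON and 462 and 540 in shMAGED2, or 7.40 ± 2.16 against 15.2 ± 0.69 CPM (SD, n = 2; log2 change 1.04, SE 0.24; edgeR, Benjamini-Hochberg adjusted p = 0.029). Without shCON replicate 1 its adjusted p was 0.172 and the change 0.76. Among 14 listed chaperones and modulators 4 were tested, 1 rose and 0 fell. That gene was TMEM35A, which encodes NACHO, a chaperone of alpha7 assembly, with 10 and 7 counts in shCON and 33 and 47 in shMAGED2 (log2 change 2.17, SE 0.57; edgeR, adjusted p = 0.0416). Its call ended without any 1 of the 4 libraries, with adjusted p between 0.0507 and 0.228. RIC3, another alpha7 chaperone, had 0 and 3 counts in shCON and 0 in both shMAGED2 libraries, too few to test (named after its counts were seen).

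Of 9 listed genes that make, move or break down acetylcholine, 3 had 0 counts in every library, namely the synthetic enzyme CHAT and the transporters SLC18A3 and SLC5A7 (named after their counts were seen). Another 4 were tested, of which 1 rose and 0 fell, where 12.3% and 11.6% of all genes tested did. The choline transporter SLC44A1 rose by 0.35 in log2 (SE 0.09; 104 ± 1.18 to 133 ± 4.97 CPM, SD, n = 2; edgeR, adjusted p = 0.0412). Its adjusted p was 0.396 and 0.361 without shCON replicate 1 and 2, and 0.0609 and 0.1003 with upper-quartile factors and with library size alone. On the FPKM scales it was 0.231 to 0.275. Of 5 muscarinic receptors 1 was tested and did not pass. Of 13 neuronal markers 7 were tested, of which 1 rose and 1 fell, and the sum over the 13 stood at 94.1 and 90.4 FPKM in shCON and 129 and 158 in shMAGED2. Most of this sum was TUBB3, which rose by 0.88 (SE 0.11; edgeR, adjusted p = 0.0049), whereas MAP2 fell by 1.96 (SE 0.29; adjusted p = 0.00715). STMN2, NEFL, ELAVL3 and ELAVL4 were at 0 in all 4 libraries. The part of this in the CHRNA7 values was not tested.

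ULK4, the kinase gene from which the first exons of CHRFAM7A derive, did not pass the test. It had 411 and 286 counts in the shCON libraries against 297 and 415, with overlapping groups and a log2 change of −0.01 (SE 0.19; edgeR, adjusted p = 0.976).

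The genes around the 4 copies in 15q13 mostly did not pass the test. Of 32 listed neighbours 22 were in the tables and 17 were tested, of which 1 rose and 2 fell, with a median log2 change of −0.31. Over all genes tested 12.3% rose, 11.6% fell and the median was 0.00. KLF13, OTUD7A, FAN1 and MTMR10, which lie between the duplicates and CHRNA7, changed by 0.16 (SE 0.09), −0.31 (SE 0.57), −0.22 (SE 0.17) and −0.43 (SE 0.16), and none passed. SCG5, a secretory granule chaperone that follows ARHGAP11A on the same strand, fell from 108 ± 3.24 to 71.6 ± 8.15 CPM (SD, n = 2; log2 change −0.59, SE 0.12; edgeR, adjusted p = 0.0174). GREM1, the BMP antagonist beyond it, rose from 326 ± 3.89 to 420 ± 26.5 CPM (SD, n = 2; log2 change 0.36, SE 0.09; edgeR, adjusted p = 0.0369). GOLGA8N, a golgin of a duplicated family, went from 130 and 117 counts to 16 and 54 and fell by 1.92 on the log2 scale (SE 0.49; adjusted p = 0.0395 in edgeR). None of these 3 passed without shCON replicate 1 (adjusted p 0.157, 0.384 and 0.0933) or without shCON replicate 2 (0.108, 0.354 and 0.0965). GREM1 also missed the threshold with upper-quartile factors (0.0514), with library size alone (0.0574) and on the FPKM scales (0.0926 to 0.0944). Farther out, AVEN (−0.56, SE 0.22), FMN1 (−0.12, SE 0.11), TJP1 (−0.08, SE 0.12), NSMCE3 (−0.04, SE 0.13), FAM189A1 (−0.39, SE 0.48), APBA2 (0.52, SE 0.49) and RYR3 (0.44, SE 0.62) did not pass.

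The GOLGA8 genes flank the copies and themselves belong to a duplicated family. Of 8 found, 4 were tested, and in all of these both shMAGED2 libraries lay below both shCON libraries, as they did for 33.0% of all genes tested. Only GOLGA8N passed. GOLGA8O went from 43 and 26 counts to 11 and 8, GOLGA8Q from 37 and 19 to 9 and 9, and GOLGA8R from 49 and 41 to 17 and 8. Their log2 changes were −1.85 (SE 0.63), −1.63 (SE 0.65) and −1.83 (SE 0.64), with edgeR adjusted p = 0.0829, 0.124 and 0.0886. Reads of these genes may be divided among family members in the same way as those of the 4 copies.

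**Figure D5:**
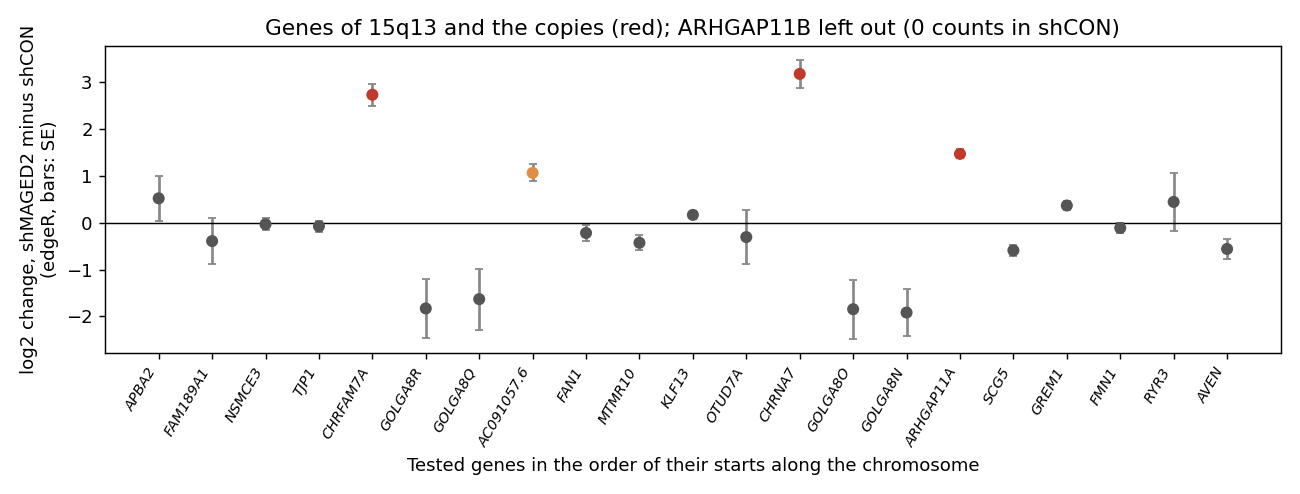
Log2 change, shMAGED2 minus shCON, with its SE (vertical axis) for the tested genes of 15q13 in the order of their starts along the chromosome (horizontal axis, not to scale), with CHRFAM7A, CHRNA7 and ARHGAP11A in red and AC091057.6 in orange. The red points lie at 2.72, 3.17 and 1.46, the GOLGA8 genes lie between −1.92 and −1.63, AC091057.6 lies at 1.06, and the remaining genes lie between −0.59 and 0.52.

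ARHGAP11A is known to bind p53. Whether its level bears on the p53 targets below was not tested. Of 20 listed p53 targets 1 rose and 6 fell, with a median log2 change of −0.29, against 12.3% higher, 11.6% lower and a median of 0.00 over all genes tested. SESN2 (−1.96, SE 0.13), XPC (−0.78, SE 0.11), TNFRSF10B (−0.76, SE 0.12) and GADD45A (−0.77, SE 0.13) fell and DDB2 rose (0.49, SE 0.12), with edgeR adjusted p of 0.000839 to 0.0333. DDB2 missed the threshold with library size alone (0.0689) and on the FPKM scales (0.0711 to 0.113). With 1 library left out, log2 changes ranged from −2.11 to −1.82 for SESN2, −0.83 to −0.74 for XPC and −0.90 to −0.64 for TNFRSF10B. They ranged from −0.90 to −0.65 for GADD45A and from 0.43 to 0.54 for DDB2. GADD45A and DDB2 missed the threshold without shCON replicate 1 and without shCON replicate 2, and XPC and TNFRSF10B without shCON replicate 2. Fewer of the 20 genes passed without shCON replicate 1 or 2, and more fell without shMAGED2 replicate 1 or 2. The number passing among all genes tested moved in the same way.

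Other human duplicates and their parents were set beside the 4 genes. Of 35 tested, 5 rose and 3 fell, with a median log2 change of 0.04, shares near the 12.3% and 11.6% over all genes tested. All 4 FAM72 copies rose, and the other gene that rose was GTF2I (0.36, SE 0.10; edgeR, adjusted p = 0.0455), named after its value was seen and not refitted with libraries left out. FAM72A, which binds the uracil glycosylase UNG2, went from 4.80 ± 0.67 to 14.1 ± 0.80 CPM, FAM72B from 4.92 ± 0.54 to 14.3 ± 1.72, FAM72C from 2.92 ± 0.45 to 9.86 ± 2.81 and FAM72D from 1.37 ± 0.69 to 4.69 ± 1.26 (SD, n = 2; edgeR, adjusted p = 0.00492 to 0.0357). FAM72D had an adjusted p of 0.127 without shCON replicate 2. The copies GTF2IRD2 (−2.06, SE 0.28), GTF2IRD2B (−0.86, SE 0.19) and SRGAP2B (−0.48, SE 0.13) fell (edgeR, adjusted p = 0.0058, 0.0276 and 0.0444), and GTF2IRD2B and SRGAP2B missed the threshold without shCON replicate 1 (0.186 and 0.199) and without replicate 2 (0.106 and 0.349). SRGAP2B also missed it with library size alone (0.0505) and on the FPKM scales (0.0889 to 0.169). GTF2IRD2B was higher, not lower, in the FPKM values (0.32 on the log2(FPKM + 1) scale). Reads of these copies are subject to the same uncertain split.

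Among 10686 annotated genes that averaged 5 CPM or more, those whose pattern over the 4 libraries lay nearest to CHRNA7 were STON2, an endocytic adaptor, TXNIP, a thioredoxin-binding protein, and ID1, an inhibitor of helix-loop-helix factors. Their distances between centred log2(CPM + 0.5) profiles were 0.308, 0.351 and 0.401. STON2 went from 1.21 ± 0.03 to 11.5 ± 1.05 CPM (SD, n = 2). Nearest to ARHGAP11A were MCM4, a subunit of the replicative helicase, at 0.0326, RFC3, a subunit of the sliding clamp loader, at 0.0565, and DEPDC1B at 0.068. MCM4 went from 120 ± 3.08 to 329 ± 7.66 CPM and RFC3 from 24.7 ± 1.25 to 70.7 ± 3.88 (SD, n = 2). Over 4 libraries nearness largely means a change of similar size between the groups, the contrast on which the genes were picked. Joint regulation was not tested.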

How the data were processed

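RNA of U87-MG cells was sequenced in 2 shCON and 2 shMAGED2 libraries, grouped and numbered by their titles. The authors deposited raw gene counts, whole numbers with no scaling, and a table of FPKM values. The submitters' processing notes name StringTie, SAMtools, HISAT2 and the build hg38. The annotation, strand setting, gene lengths and handling of multiply matching reads were not given in the sources used here. Of 23444 rows, 3470 carry no Ensembl identifier.

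Counts were fitted with edgeR 4.0.16 in R 4.3.3 (filterByExpr by group, TMM, robust quasi-likelihood test, group as the only term, two-sided, Benjamini-Hochberg over 15293 genes, threshold 0.05); SE came from the F statistic. There were 2 residual degrees of freedom. Sums of rows were fitted in place of those rows. Implied length is the count divided by the library total and by FPKM, rescaled to bases. Exons and transcripts came from GENCODE 29 and were aligned with Biopython 1.88; promoters came from the RefSeq table. The fit was also tested on simulated counts, the outcome of which is not reported here.

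Alternatives were other scalings, DESeq2 1.42.0, limma 3.58.1 (voom, and trend on log2(FPKM + 1) and log2(FPKM + 0.1)), other filters, leaving out each library, and a replicate block. Sums with AC091057.6, a fit to annotated genes only and the ARHGAP11B bound with libraries left out were added after seeing the data. The genes and lists were chosen with earlier results of these data known. Named are the 4 genes, both hairpin targets, ULK4 and tested neighbours, up to 4 genes per list and direction with the smallest p, and the 3 nearest patterns to CHRNA7 and to ARHGAP11A. Some listed genes are not reported here.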

Additional observations from a re-analysis of the deposited data

How the results depend on the processing

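The log2 changes of CHRNA7, CHRFAM7A and ARHGAP11A ranged from 2.43 to 3.60, 1.08 to 2.85 and 1.31 to 1.51 over 17 alternatives each, and those of the sums of the pairs from 2.46 to 3.35 and 1.43 to 1.52; the 1.08 of CHRFAM7A was on the log2(FPKM + 1) scale, which understates changes of low genes. These genes were chosen on this contrast, so a direction kept is no support. ARHGAP11B changed by 1.73 on log2(FPKM + 1) with no filter and could not be fitted under the filter of 5 CPM; its fitted changes are no bound, since shCON was at 0. The number of genes changed was 3649, fell to 1640 on log2(FPKM + 1) with no filter, and ranged from 1100 to 7447 when 1 library was left out (1100 and 1272 without shCON replicate 1 or 2, 6565 and 7447 without shMAGED2 replicate 1 or 2). A group left with 1 library takes its spread from the other group. With a replicate block 3336 genes changed, and TMEM35A, SLC44A1, GREM1 and DDB2 missed the threshold (adjusted p 0.078, 0.077, 0.0735 and 0.0525). Same-numbered libraries did not deviate together (correlation −0.02). With 2 libraries per group this cannot settle whether the numbers pair them. TMEM35A also missed it in DESeq2 (0.0782). On log2(FPKM + 1) with no filter CHRNA5, GOLGA8N, SCG5, FAM72D, MAP2 and TUBB3 missed it (0.0589 to 0.0981), and FAM72D did on log2(FPKM + 0.1) (0.0512).

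Directions reversed for 7 named genes. On log2(FPKM + 1), with and without the filter, FMN1 became 0.039, ULK4 0.065 and GTF2IRD2B 0.32, and OTUD7A became 0.035 with no filter; on log2(FPKM + 0.1) they were 0.043, 0.084 and 0.38 for FMN1, ULK4 and GTF2IRD2B. With 1 library left out, FAM189A1 ranged from −0.80 to 0.19, ULK4 from −0.14 to 0.13, FMN1 from −0.24 to 0.0011, NSMCE3 from −0.15 to 0.070 and TJP1 from −0.20 to 0.036. The cause was not tested. Depth limits the statements on TMEM35A, with 7 to 47 counts per library. It also limits those on the ARHGAP11B row in shCON, where 0 counts allow up to 0.0860 and 0.102 CPM by counting error alone. These limits do not cover ARHGAP11B reads that may have been given to AC091057.6, which stood at 5.82 and 6.04 CPM in shCON.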
